A study of Mus musculus with 6 samples.

Results

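*Nptx2*, *Miat*, *Caln1*, *Rps6kl1* and *Myl1* are 5 genes that the study drew as changed in *Zic2* mutant mouse embryos and that belong to none of the patterning pathways it followed. They were chosen for that reason, and are measured by 10 of the 45281 probes of the Illumina Mouse WG6 v2 array, where the brightness of a probe stands for the level of its transcript. They are 5 of 19057 genes with a probe of their own. Each sample was the total RNA of a pool of 8 whole embryos of matched stage, taken at E8.0 to E8.5 from crosses between heterozygous carriers. There were 3 wildtype (*Zic2* +/+) pools and 3 pools homozygous for *iso* (*Zic2* iso/iso), all on a C3H/HeH background, and the methods give the controls as littermates of the mutants. The *iso* allele is a premature stop codon of *Zic2*, a zinc finger transcription factor gene, and came from a chemical mutagenesis of another strain before it was backcrossed. A stop codon need not remove the transcript, so the level of *Zic2* itself does not check the labels.

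At this stage the neural plate is folding, the first somites form and the heart tube assembles, while few cells are yet neurons. *Nptx2* encodes a secreted neuronal pentraxin that gathers glutamate receptors of the AMPA type at synapses. *Miat*, also known as Gomafu, is a long non-coding RNA that stays in the nucleus and is best known from neurons and the retina. *Caln1* encodes calneuron 1, a small calcium-binding protein of the calmodulin superfamily found in the brain. *Rps6kl1* encodes a protein that resembles the ribosomal S6 kinases in sequence and whose role is little known. *Myl1* encodes the essential light chain of the myosin of fast skeletal muscle, which is made in 2 forms from alternative starts.

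By the RefSeq annotation of GRCm38.p6, *Nptx2* (5:144545887-144557478), *Caln1* (5:130369404-130846325) and *Miat* (5:112213228-112228948) lie on chromosome 5, which holds 5.81% of the array's genes, far apart from each other. *Rps6kl1* (12:85135249-85151277) lies on chromosome 12 and *Myl1* (1:66924295-66947932) on chromosome 1. None lies on chromosome 14 with *Zic2*. RefSeq sequence before the start of transcription was at hand for 4 of the 5 genes (not for *Nptx2*). It is shown for the 3 whose window reaches outside the annotated gene, with every CG dinucleotide in capitals. *Miat* and *Caln1* were lower and *Rps6kl1* was higher in mutant pools, and a relation of this stretch to that direction was not tested. *Caln1* (lower) and *Rps6kl1* (higher) have the same GC content over the full window. Bases inside the annotated gene were left out. Each line reads 5′ to 3′ on the strand of the gene.
*Miat* (chr5:112228949-112229198, minus strand): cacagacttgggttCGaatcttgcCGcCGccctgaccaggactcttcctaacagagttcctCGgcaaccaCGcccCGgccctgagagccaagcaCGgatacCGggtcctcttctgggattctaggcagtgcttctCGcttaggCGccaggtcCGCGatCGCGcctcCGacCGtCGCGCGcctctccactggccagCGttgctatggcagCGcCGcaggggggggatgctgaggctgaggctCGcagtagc
*Caln1* (chr5:130369208-130369403, plus strand): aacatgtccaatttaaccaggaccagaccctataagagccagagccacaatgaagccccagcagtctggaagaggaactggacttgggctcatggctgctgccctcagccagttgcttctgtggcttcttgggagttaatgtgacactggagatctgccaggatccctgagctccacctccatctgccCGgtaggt
*Rps6kl1* (chr12:85151278-85151514, minus strand): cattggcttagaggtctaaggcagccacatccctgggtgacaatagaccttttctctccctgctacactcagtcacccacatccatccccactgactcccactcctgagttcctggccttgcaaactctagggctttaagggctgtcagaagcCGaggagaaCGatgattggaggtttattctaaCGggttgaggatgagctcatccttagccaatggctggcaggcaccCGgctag

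Over the full 250 bases before the start, *Miat* has 23 CG dinucleotides, *Myl1* 6, *Rps6kl1* 5 and *Caln1* 4, where the median over 27025 RefSeq promoters is 6. The GC content of this stretch is 65.6% for *Miat*, higher than in 84.2% of promoters, 55.2% for both *Caln1* and *Rps6kl1*, and 46.8% for *Myl1*. The window of *Myl1* lies inside the annotated gene, downstream of its farthest start, and is not shown. The letters CCTGCTG, the core of the ZIC motif, were searched on both strands and occur in 8.34% of all promoters and in none of the 4. Those of the site bound by GLI proteins, the zinc finger factors most like ZIC (TGGGTGGTC, both strands), occur in 0.211% of promoters and also in none of the 4. The ZIC2 sites that the study examined in an enhancer of *Nodal* do not hold CCTGCTG on either strand. The search therefore does not show whether these promoters have ZIC2 sites, and 4 promoters are too few to set against these shares.

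The deposited intensities are linear, with a median of 154 to 187 per array, and still contain the background and differ in scale from array to array. They were put on a log2 scale and made equal in distribution by quantile normalisation, and all levels given here are on that log2 scale. A difference is *Zic2* iso/iso minus wildtype. A background level of 7.47 was set from 1608 probes for olfactory receptors and other families not known to be active at this stage, and since the background was not subtracted, differences of dim probes are smaller than those of their transcripts. Levels of different probes are not comparable with each other. Of all probes, 20 (0.0442%) passed an adjusted p of 0.05 in limma (Benjamini-Hochberg adjustment over all probes), 18 lower (0.0398%) and 2 higher (0.00442%) in the mutant pools. In 10.6% the pools of the genotypes did not overlap, 5.46% with the mutant pools lower and 5.18% with them higher. With the brightest probe standing for each of the 19057 genes, 0.0945% passed, 7.65% had an unadjusted p under 0.05 and in 10.9% the pools did not overlap, 6.24% lower and 4.67% higher. Labels and methods give the pools as replicates of stage-matched embryos and state no array batch. For *Zic2*, the brighter probe was at 8.27, 8.06 and 8.00 in wildtype pools 1 to 3 and at 7.64, 7.57 and 8.01 in mutant pools 1 to 3, with overlap.

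The 5 genes had been selected on this same contrast in these same pools, so the differences at their probes are a description without a test. At the brightest probe of each gene, 4 were lower and 1 (*Rps6kl1*) was higher in mutant pools, by 0.49 to 0.69 on the log2 scale in size, and the pools of the genotypes did not overlap in any of the 5, beside 10.6% of all probes (5.46% lower and 5.18% higher). All 5 of these probes were above the background level in both genotypes. Under the fit over all probes 3 of them (*Nptx2* and *Miat* lower and *Rps6kl1* higher) were past the threshold, beside 0.0442% of all probes (0.0398% lower and 0.00442% higher), and *Caln1* and *Myl1* were not. None of the 5 was past it without wildtype pool 2, without mutant pool 2 or without mutant pool 3.

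**Figure D1:**
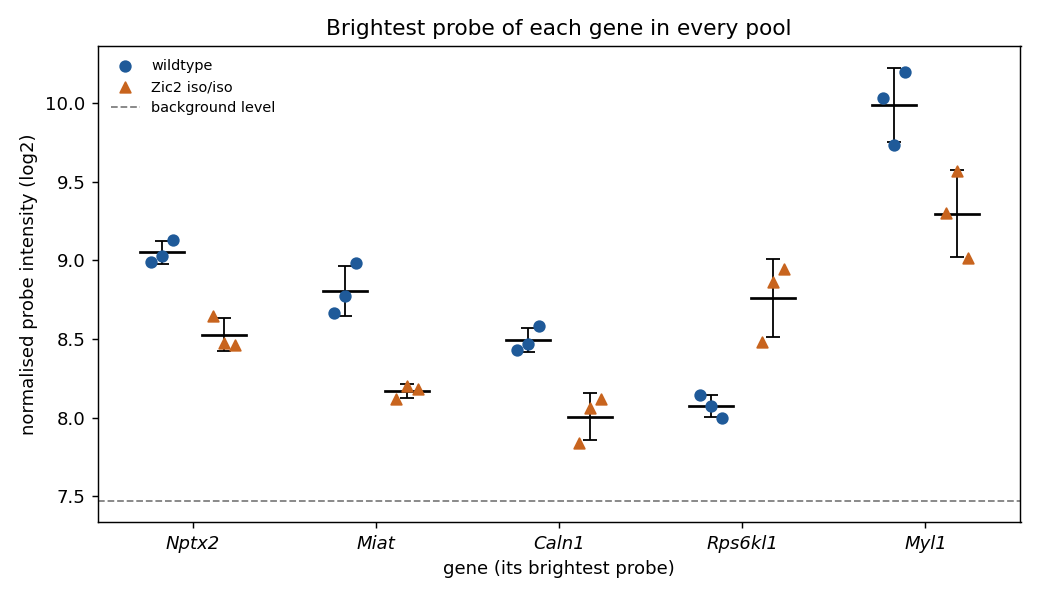
Quantile-normalised log2 intensity (vertical axis) of the brightest probe of each of the 5 genes (horizontal axis) in every wildtype pool (circles) and Zic2 iso/iso pool (triangles), with means (bars) and the SD of 3 pools (error bars). The mutant pools lie below the wildtype pools for Nptx2, Miat, Caln1 and Myl1 and above them for Rps6kl1, and all values lie above the dashed background level of 7.47.

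*Nptx2* was at 8.99, 9.03 and 9.13 in wildtype pools 1 to 3 and at 8.65, 8.47 and 8.46 in mutant pools 1 to 3. The 3 mutant pools lay below all wildtype pools, with a gap of 0.34 between the nearest of them. The means were 9.05 ± 0.07 and 8.53 ± 0.11 (SD, n = 3 pools each), a difference of −0.52 (standard error 0.07), or 1.44-fold. In a bulk sample, fewer cells that express a gene and less RNA in each of them cannot be told apart. A second probe for the same transcript lay below the background level in both genotypes (means 7.16 and 7.07) and its pools overlapped.

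The relatives and receptors of this pentraxin were mostly too dim to be read. Of 14 other genes on a list of neuronal pentraxins, AMPA receptor subunits and their partners, 3 exceeded the background level, and none passed limma's test, where 0.0945% of all genes did. At an unadjusted p under 0.05 there were also 0. *Nptx1*, which encodes another neuronal pentraxin, had means of 7.22 (wildtype) and 7.20 (mutant), and *Nptxr*, which encodes a membrane-bound pentraxin, at 7.06 and 7.20, all below the background level. *Grip1*, a scaffold for AMPA receptors, had the largest difference among those above it, 0.13 (standard error 0.07, adjusted p = 0.87 from limma), and *Gria3*, a receptor subunit gene, followed at 0.10 (adjusted p = 0.96).

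*Miat* was at 8.67, 8.77 and 8.98 in the wildtype pools and at 8.12, 8.20 and 8.18 in the mutant pools. The mutant pools lay close together, 0.47 or more below the lowest wildtype pool, and the wider spread was that of the wildtype pools. The means were 8.81 ± 0.16 and 8.17 ± 0.05 (SD, n = 3 pools each), a difference of −0.64 (standard error 0.08), or 1.56-fold. Its other probe, annotated to the same transcript, had the opposite sign at 0.07 (standard error 0.07), but its means of 7.35 and 7.42 did not reach the background level in either genotype.

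The other long non-coding RNAs that could be read were close to their wildtype levels. On a list of 29 such genes, *Miat* included, 13 matched no probe used here, among them *Malat1*, *Rmst* and *Sox2ot*. Of the 15 others measured, 11 were above the background level, with differences of −0.12 to 0.11 and a median of −0.04, beside a median of 0.00 over all probes. None passed limma's test, none had an unadjusted p under 0.05, and the pools overlapped in every one of the 15. *Snhg11*, a host gene of small nucleolar RNAs, had the largest difference, −0.12 (standard error 0.08, adjusted p = 0.93 from limma), and *Kcnq1ot1*, an imprinted antisense transcript, was at 0.11 (adjusted p = 0.98).

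*Caln1* was at 8.43, 8.47 and 8.58 in the wildtype pools and at 7.84, 8.06 and 8.12 in the mutant pools. Here mutant pool 1 was the lowest, and the wildtype pools again did not overlap with the mutant ones. The means were 8.49 ± 0.08 and 8.01 ± 0.15 (SD, n = 3 pools each), a difference of −0.49 (standard error 0.08), or 1.40-fold. Without mutant pool 1 the difference was −0.40. A second probe, annotated to another transcript of the gene and just above the background level in both genotypes, was at 7.54 and 7.53, a difference of −0.01 (standard error 0.06) with overlapping pools. The probes of *Caln1* thus gave unlike differences.

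Of 17 other calcium sensor genes of the calneuron family and its neuronal relatives, 9 exceeded the background level and none passed limma's test. An unadjusted p under 0.05 was found for 1, beside 7.65% of all genes. *Cabp7*, which encodes calneuron 2, did not reach the background level in either genotype, at 7.32 and 7.29. *Hpcal1*, which encodes a hippocalcin-like sensor, averaged 7.70 ± 0.03 over the wildtype pools and 7.86 ± 0.09 over the mutant ones (SD, n = 3 each), without overlap, a difference of 0.16 (adjusted p = 0.81). *Vsnl1*, which encodes visinin-like 1, was at −0.12 (adjusted p = 0.93).

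Since *Nptx2*, *Miat* and *Caln1* are best known from neurons, a list of early neuronal genes was set beside them. Of 21 such genes, 10 exceeded the background level and none passed limma's test. An unadjusted p under 0.05 was found for 3, beside 7.65% of all genes. The pools of 3 (14.3%) did not overlap, beside 10.9% of all genes. The general neuronal markers *Tubb3*, *Elavl4*, *Dcx*, *Neurog1* and *Neurod1* did not reach the background level in either genotype. *Elavl3* (means 7.58 and 7.41) and *Neurog2* (7.49 and 7.36) were just above it in wildtype and below it in mutant pools, both with overlap. The brighter *Elavl2* (9.78 and 9.81) and *Isl1* (10.77 and 10.81), named after their values were seen, hardly differed between genotypes. *Stmn2*, which encodes a tubulin-binding protein of growing axons, averaged 9.45 ± 0.08 over the wildtype pools and 9.08 ± 0.09 over the mutant ones (SD, n = 3 each), a difference of −0.38 without overlap (adjusted p = 0.16 from limma). *Nefm*, a neurofilament gene, went the other way, at 0.27 without overlap (adjusted p = 0.61). *Map2*, which encodes a microtubule-associated protein of dendrites and was picked out after its values were seen, differed by −0.27 without overlap (adjusted p = 0.70). Of the 10 genes above the background level 7 had a negative difference, with a median of −0.13, and the median over all 21 was −0.03. The summed linear intensity over the 21 genes was 6887 to 6996 in wildtype and 6651 to 6820 in mutant pools, without overlap. This separation rests on *Stmn2*, without which the sums overlap, and the sums include the background of the dim genes. They do not stand for the list as a whole. The part of neuronal cells in the differences of the 3 genes was not tested.

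Of 19 genes of neural progenitors, 12 exceeded the background level, none passed limma's test and 4 had an unadjusted p under 0.05 (7.65% of all genes did). Their median difference was 0.00, and the summed intensity was 22551 to 23915 in wildtype and 21247 to 25465 in mutant pools. *Sox2*, a transcription factor gene of the neural plate, was at 9.08 and 9.15, and *Nes*, which encodes the filament protein nestin, at 8.42 and 8.53. *Hes5*, a target of Notch, averaged 7.83 ± 0.08 over the wildtype pools and 8.16 ± 0.22 over the mutant ones (SD, n = 3 each) without overlap (difference 0.33, adjusted p = 0.61), and *Nkx6-1*, a homeobox gene of the ventral neural tube, differed by −0.33 with overlap (adjusted p = 0.74).

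*Rps6kl1* was the one gene of the 5 at a higher level in mutant embryos. It was at 8.14, 8.08 and 8.00 in the wildtype pools and at 8.48, 8.86 and 8.95 in the mutant pools. Mutant pool 1 lay 0.34 above the highest wildtype pool, and the other mutant pools were higher still. The means were 8.07 ± 0.07 and 8.76 ± 0.25 (SD, n = 3 pools each), a difference of 0.69 (standard error 0.10), or 1.61-fold. Of all 45281 probes, 4 had a larger positive difference. The gene has 1 probe, so no second reading of it could be set beside this one.

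Few of the kinases it resembles could be read. Of 10 other genes on a list of ribosomal S6 kinases, their relatives and their pathway, 7 exceeded the background level, with differences of −0.01 to 0.14, and of these only *Rps6ka3* and *Rps6ka5* encode kinases of the S6 type. None passed limma's test and none had an unadjusted p under 0.05. *Rps6ka1*, *Rps6ka2*, *Rps6ka4* and *Rps6kb1* were not analysed here. *Rps6ka3*, which encodes the kinase RSK2, was at 8.38 and 8.47 (difference 0.09, adjusted p = 0.95). *Rps6kc1*, whose product combines kinase-like and lipid-binding domains and is the closest relative on the list, did not reach the background level in either genotype, at 7.36 and 7.27. *Rps6ka5*, which encodes the kinase MSK1, was at 7.59 and 7.73 (difference 0.14, adjusted p = 0.90), and *Snx15*, which encodes a sorting nexin, at 9.60 and 9.73 (difference 0.12, adjusted p = 0.93).

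**Figure D2:**
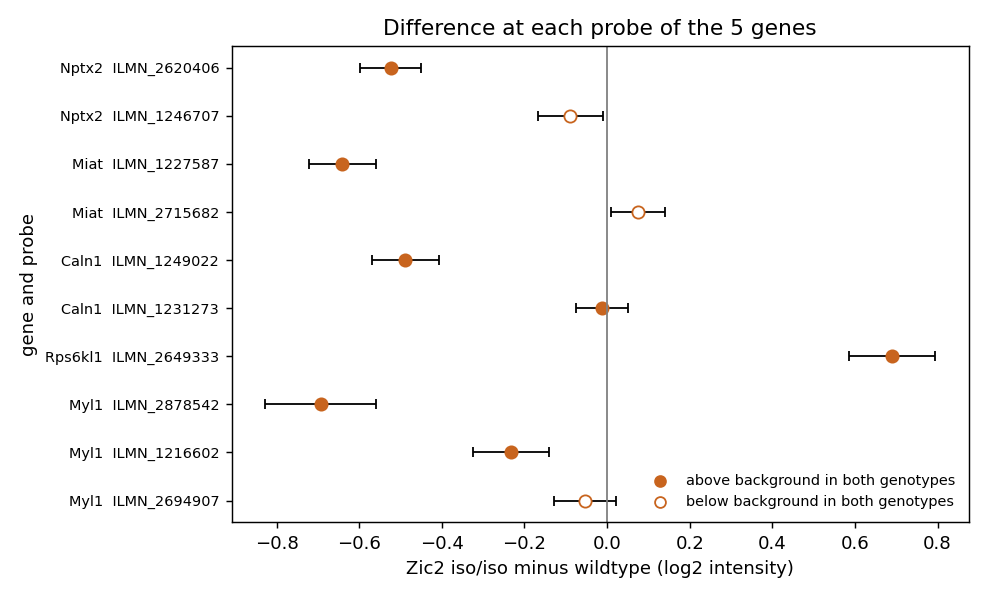
Difference between Zic2 iso/iso and wildtype pools in log2 intensity (horizontal axis) at each of the 10 probes of the 5 genes (vertical axis), with the standard error from limma (error bars) and filled or open points for probes above or below the background level. The brightest probe of each gene lies 0.49 to 0.69 away from 0, while the dimmer probes lie between −0.23 and 0.07.

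*Myl1* was at 10.04, 9.74 and 10.20 in the wildtype pools and at 9.30, 9.57 and 9.02 in the mutant pools. Its pools varied more than those of the other 4 genes, and only 0.16 separated the lowest wildtype pool (2) from the highest mutant pool (2). The means were 9.99 ± 0.24 and 9.30 ± 0.28 (SD, n = 3 pools each), a difference of −0.69 (standard error 0.13), or 1.62-fold. This was the largest negative difference of the 5 genes and also the one with the largest standard error, and it was 2.69 times the SD between pools, where that of *Nptx2* was 5.78 times. The difference ran from −0.83 without mutant pool 2 to −0.55 without mutant pool 3. A dimmer probe from another transcript record was at 7.82, 7.79 and 8.03 in the wildtype pools and at 7.72, 7.77 and 7.46 in the mutant pools, a difference of −0.23 (standard error 0.09), with a gap of only 0.02 between the genotypes. The last of its 3 probes did not reach the background level in either genotype.

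Among the dimmer probes of the 5 genes this one of *Myl1* was the only one whose genotypes did not overlap, 1 of 5, beside 10.6% of all probes. Of those 5 probes, 2 were above the background level in both genotypes and 3 below it in both.

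Other light chain genes known from the embryonic heart were also lower in mutant pools on average, without passing the test. Of 14 other genes on a list of myosin light chains and their kinases, 10 exceeded the background level, none passed limma's test, 3 had an unadjusted p under 0.05 (7.65% of all genes did) and 2 (*Myl4* and *Myl12a*, 14.3%) had mutant pools that were all below the wildtype pools, as in 6.24% of all genes. *Myl4*, which encodes the essential light chain of the atrium and of embryonic muscle, was at 12.68, 12.49 and 12.87 in the wildtype pools and at 12.28, 12.40 and 11.52 in the mutant pools, a difference of −0.61 (standard error 0.18, adjusted p = 0.61 from limma). *Myl7*, which encodes the atrial regulatory light chain, differed by −0.53 (standard error 0.20, adjusted p = 0.76) and *Myl3*, which encodes the essential light chain of the ventricle, by −0.44 (standard error 0.23, adjusted p = 0.89), both with overlap. For both, as for *Myl4*, mutant pool 3 was the lowest of the 6. *Myl6*, the light chain gene of non-muscle and smooth muscle cells, was at 13.89 and 13.87.

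Heart muscle genes varied over the same pools. Of 17 measured, 12 were above the background level and all 12 had a negative difference (median −0.34, and −0.09 over all 17), but none passed limma's test, 5 had an unadjusted p under 0.05, beside 7.65% of all genes, and the pools of 2 (11.8%) did not overlap, beside 10.9%. *Actc1*, the cardiac actin gene, differed by −0.66 (standard error 0.24, adjusted p = 0.75) with overlap, and *Tnnc1*, which encodes cardiac troponin C and was picked out after its values were seen, by −0.60 without overlap (adjusted p = 0.57). The summed linear intensity of the 17 genes was 18512 to 23862 in wildtype pools and 18626, 16928 and 10311 in mutant pools 2, 1 and 3, so that pool 3 stood lowest, as it did for *Myl1*. Whether the amount of heart tissue had a part in the difference of *Myl1* was not tested.

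Of the skeletal muscle list, 20 genes were measured and 9 exceeded the background level. None passed limma's test, and 1 had an unadjusted p under 0.05, beside 7.65% of all genes. The myogenic factor genes *Myf5*, *Myod1*, *Myf6* and *Myog* lay below the background level or at it in both genotypes (means of 7.16 to 7.47). *Acta1*, the skeletal actin gene, which the heart also uses, was at 8.71, 8.53 and 8.89 in the wildtype pools and at 7.98, 8.39 and 7.57 in the mutant pools. Its genotypes did not overlap, and the difference of −0.73 (standard error 0.16) had an adjusted p of 0.26 in limma. *Actn2*, which encodes the actinin of the sarcomere, differed by −0.31 with overlap (adjusted p = 0.86). Other genes of the list above the background level hardly differed, such as *Tnnt3* (7.68 and 7.68), *Tnni2* (7.90 and 7.90) and *Actn3* (7.71 and 7.71). The light chain gene *Mylpf*, from the list of myosin light chains, was at 7.84 and 7.81. Of the 9 genes above the background level, 5 had a negative difference and 4 a positive one. The summed linear intensity of the 20 genes was 4928 to 5169 in wildtype and 4276 to 4889 in mutant pools, without overlap. This separation rests on *Acta1*, without which the sums overlap, and the median difference over the 20 genes was 0.00. The part of skeletal muscle in the difference of *Myl1* was not tested.

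**Figure D3:**
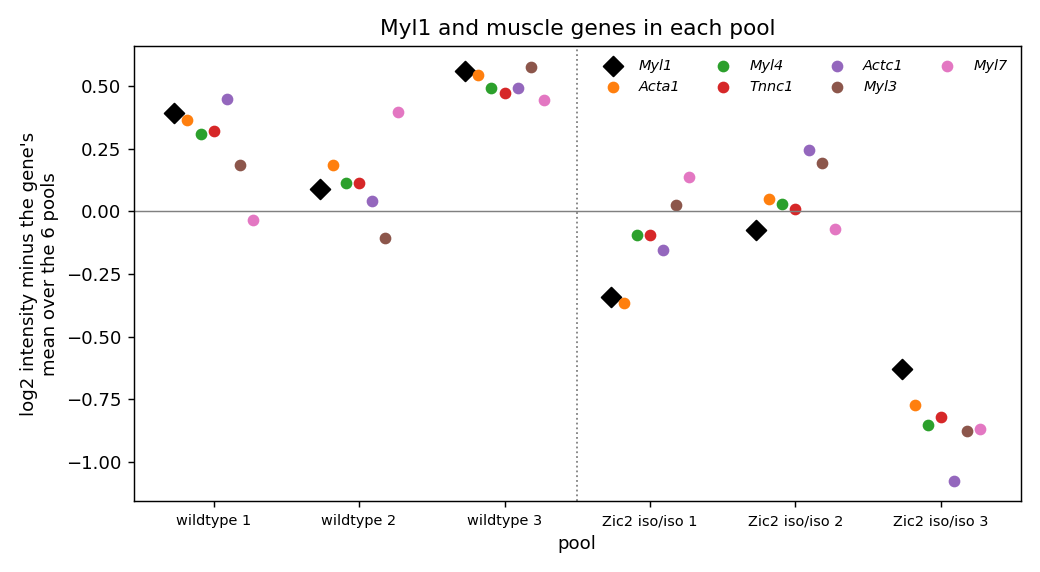
Log2 intensity of Myl1 (diamonds) and 6 muscle genes (circles) in each pool, after subtraction of each gene's mean over the 6 pools (vertical axis), with the pools on the horizontal axis and a dotted line between the genotypes. All 7 genes are lowest in Zic2 iso/iso pool 3, and Myl1 and Acta1 stay close together in every pool.

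The 4 genes that were lower in mutant pools differed in which mutant pool was lowest, namely pool 3 for *Nptx2* and *Myl1* and pool 1 for *Miat* and *Caln1*. All 4 were highest in wildtype pool 3, and *Rps6kl1* was lowest there. With each profile centred on its own mean over the 6 pools, the root mean square distance was smallest between *Miat* and *Caln1* (0.11) and between *Nptx2* and *Miat* (0.12), and 0.20 to 0.25 between *Myl1* and these 3. *Rps6kl1* lay 0.60 to 0.75 from the other 4. These distances describe 6 pools that fall into 2 genotypes, and for genes picked on that contrast a short distance follows in part from the choice.

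The same distance over the 10845 genes above the background level in at least 1 genotype gave the genes most like each of the 5, over 6 pools. For *Nptx2* these were *Chrd*, which encodes a BMP antagonist (0.07), *Stmn2* (0.09) and the tight junction gene *Cldn10* (0.09). For *Miat* they were the dynein light chain gene *Dynlrb2* (0.10), *Cldn10* (0.11) and *Vstm2b* (0.11), and for *Caln1* they were *Ppp1r1b* (0.08), which encodes a phosphatase inhibitor, the forkhead gene *Foxc2* (0.08) and the sterol transporter gene *Abcg5* (0.08). The nearest to *Myl1* was *Acta1* (0.09), followed by *Sox10*, a neural crest transcription factor gene (0.11), and the peptide hormone gene *Pyy* (0.12). *Rps6kl1* had no profile as near, with *Tshz1*, a zinc finger gene, at 0.17, the netrin receptor gene *Unc5c* at 0.18 and the kinesin gene *Kifc1* at 0.19. A short distance here follows in part from a like difference between genotypes. Of these nearest genes, *Chrd* (difference −0.52), *Cldn10* (−0.53) and *Dynlrb2* (−0.69) passed limma's test and the others did not.

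The chromosomal neighbours of the 5 genes, set by position alone, had smaller differences. This follows in part from the choice, since the 5 genes were picked on this contrast. For each gene the 3 genes with a probe on either side were read, 30 in all, of which 20 exceeded the background level. None passed limma's test, beside 0.0945% of all genes, and 4 had an unadjusted p under 0.05, beside 7.65%. In 13.3% the pools did not overlap, beside 10.9% of all genes. Those above the background level had differences of −0.15 to 0.32 with a median of 0.03.

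Next to *Caln1*, *Tyw1*, which encodes an enzyme of tRNA modification, was at 0.15 (adjusted p = 0.90 from limma) and *Galnt17*, a glycosyltransferase gene, was below the background level. *Baiap2l1* and *Tmem130*, on either side of *Nptx2*, were at 0.01 and −0.06 (adjusted p = 1.00 and 0.98). The neighbours of *Miat* were the non-coding *1700028D13Rik*, at −0.05 (adjusted p = 0.98), and the lens crystallin gene *Cryba4*, below the background level. Those of *Myl1* were *Acadl*, which encodes an enzyme of fatty acid oxidation, at 0.05 (adjusted p = 0.98), and *Lancl1* at −0.12 (adjusted p = 0.92), and those of *Rps6kl1* were the metabolic enzyme gene *Dlst*, at −0.02 (adjusted p = 0.99), and the placental growth factor gene *Pgf*, at −0.12 around the background level (adjusted p = 0.91). The widest difference among the 30 was that of *Ylpm1*, the third gene before *Rps6kl1*, at 0.32 with overlap (standard error 0.16, adjusted p = 0.87).

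**Figure D4:**
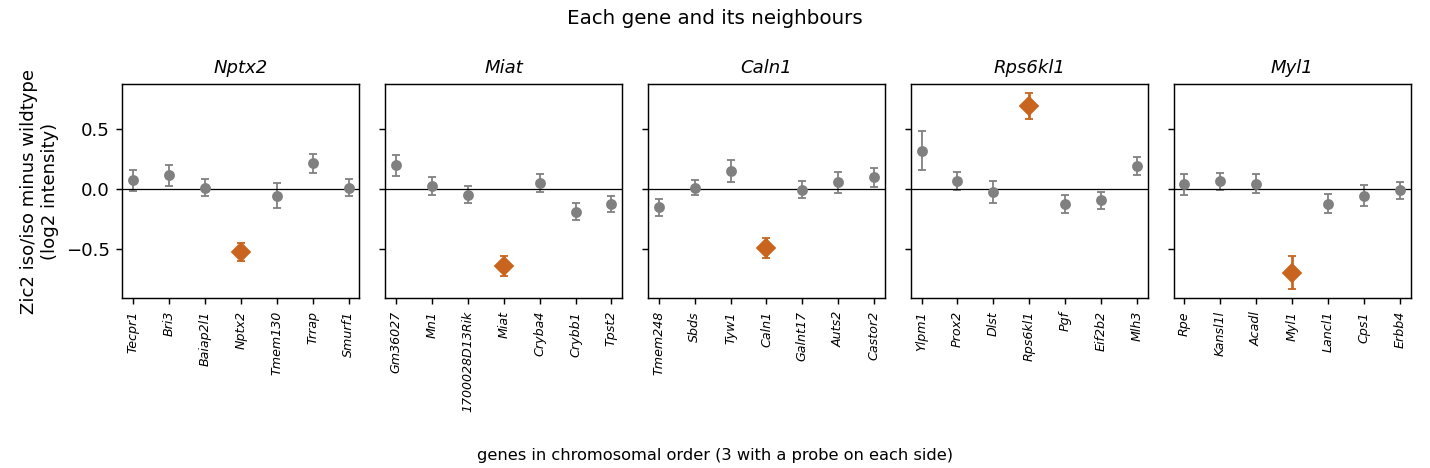
Difference between Zic2 iso/iso and wildtype pools in log2 intensity (vertical axis) of each of the 5 genes (diamonds) and the 3 genes with a probe on each side of it (circles) in chromosomal order (horizontal axis), with the standard error from limma. The neighbours lie between −0.19 and 0.32 and the 5 genes at −0.49 or beyond and at 0.69.

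Other tissues that whole embryos can carry varied between pools within a genotype. Of 10 measured genes of primitive blood none passed limma's test and none had an unadjusted p under 0.05, and the embryonic globin gene *Hbb-bh1* ran from 9.04 (mutant pool 3) to 12.87 (mutant pool 1), with *Hba-x* likewise lowest and highest in these pools (7.49 and 10.58). Of 14 genes of the yolk sac and visceral endoderm none passed and 2 had an unadjusted p under 0.05, beside 7.65% of all genes. *Apob*, a lipoprotein gene, averaged 10.66 ± 0.02 over the wildtype pools and 11.16 ± 0.22 over the mutant ones (SD, n = 3 each) without overlap (difference 0.50, adjusted p = 0.15), and *Lrp2*, an endocytic receptor gene, differed by 0.31 (adjusted p = 0.82). Of 7 genes of trophoblast and decidua none passed and none had an unadjusted p under 0.05. *Prl8a2*, a prolactin family gene of the decidua, was at 7.92 to 9.27 in the wildtype pools and 7.96 to 8.64 in the mutant pools, and *Cryab* differed by −0.12 (adjusted p = 0.95). Over the 3 lists the summed intensity overlapped between genotypes, at 8650 to 18380 and 7988 to 14716 for blood, 31614 to 42663 and 34512 to 52091 for the yolk sac, and 4352 to 4890 and 4227 to 4661 for trophoblast and decidua, in wildtype and mutant pools. The part of these tissues in the differences of the 5 genes was not tested.

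Over all 12 lists, 174 genes other than the 5 were measured, and none passed limma's test. An unadjusted p under 0.05 was found for 17, beside 7.65% of all genes, and the median difference was −0.01. Where the prior variance of limma was let follow the intensity, *Acta1* alone passed (adjusted p = 0.037), and without mutant pool 2 *Acta1* (−0.93, adjusted p = 0.046) and *Apob* (0.63, adjusted p = 0.015) did.

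**Figure D5:**
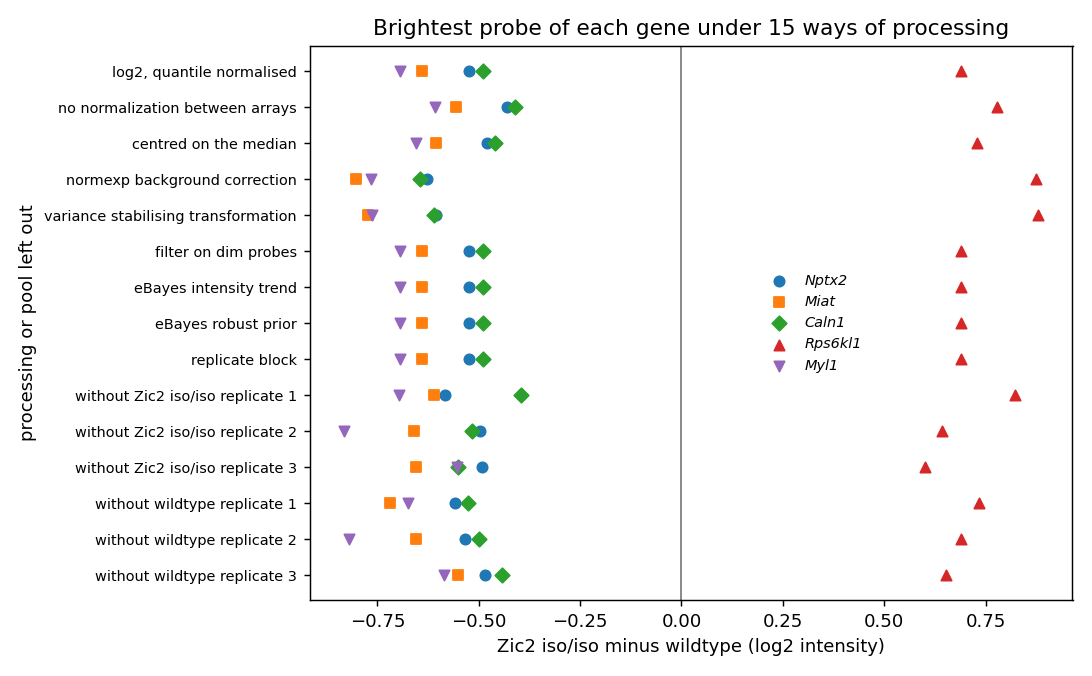
Difference between Zic2 iso/iso and wildtype pools in log2 intensity (horizontal axis) at the brightest probe of each of the 5 genes under 15 ways of processing or with a pool left out (vertical axis). Nptx2, Miat, Caln1 and Myl1 lie below 0 and Rps6kl1 above it in all 15.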

How the data were processed

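Gene expression was measured with 1 Illumina Mouse WG6 v2 array for each of 6 embryo pools, and genotype and replicate number came from the labels. The deposited values are linear probe intensities, 1 per probe and pool, without the variance stabilising normalisation that the methods describe. With 1 as the lowest value allowed, they were taken to log2, quantile normalised and fitted in limma 3.58.1 (R 4.3.3) without covariates or a filter, with Benjamini-Hochberg adjustment over 45281 probes and a threshold of 0.05. Symbols came from the platform's annotation, with 34885 probes carrying 1 symbol, 18 several and 10378 none, and positions and sequences from RefSeq (GRCm38.p6). The brightest probe over all pools stood for a gene. Of 207 list names, 28 matched no probe used here. The members and lists were chosen with earlier results of these data known.

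The text names every probe of the 5 genes, their closest relatives, the 2 largest differences above background on each list, the nearest neighbours and the 3 nearest profiles. A set of cell type markers had also been listed beforehand, and not all of them are named. Other genes were named after their values were seen. The steps were tested on simulated data. The number of arrays limits the precision. The p-values from limma set a difference against the spread between pools, with a prior variance taken from all probes. They do not cover the spread between single embryos. Deviations of the pools from their genotype means correlated at −0.13 to −0.02 for equal replicate numbers and at −0.02 to 0.13 for unequal ones. With 3 pools per genotype these values cannot tell whether the pools were paired.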

Additional observations from a re-analysis of the deposited data

How the results depend on the processing

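At the brightest probes of the 5 genes, the difference kept its direction in all 70 values from 14 alternative settings, and 62 stayed within 1 SD between pools of the value reported. Beyond that, *Nptx2* was at −0.43 without normalization between arrays and −0.63 with normexp background correction. With normexp and with the variance stabilising transformation, *Miat* was at −0.80 and −0.77, *Caln1* at −0.64 and −0.61, and *Rps6kl1* at 0.87 and 0.88. Of these 5 probes, 0 to 5 were past the threshold, with 5 under an intensity trend and 1 under the replicate block (*Miat*). Over all probes, 20 passed, against 4 without normalization between arrays (3 lower), 11 with median centring, 31 with an intensity trend (25 lower), 17 with the replicate block and 14 to 29 when pools were left out. The methods give littermate controls, but nothing ties a replicate number to a litter. Of the list genes, 0 passed, 1 with an intensity trend and 0 to 2 when pools were left out. No neighbour passed in any setting. The cause of these changes was not tested. The second probe of *Caln1* had a sign that turned in 3 settings, at −0.03 to 0.05. Signal close to background limits the dimmer probes, and 3 pools per genotype limit the rest.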
